A study of Rattus norvegicus with 12 samples.

Results

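The genes described here encode 6 subunits of the voltage-gated sodium channel family, the alpha subunits Scn1a, Scn3a and Scn7a and the beta subunits Scn2b, Scn3b and Scn4b. They were chosen by gene name, not by a measured value, are 6 of the 35279 gene names, and are carried by 7 of the 41012 probes of a rat oligonucleotide array, since Scn4b has 2 probes. RNA came from male Sprague-Dawley rats, 10 weeks old at the start (another label gives 11 weeks), that received amiodarone by mouth at 300 mg/kg per day for 10 days. Control rats received the vehicle, 1% methylcellulose. Left ventricle and whole blood were each measured as 3 pools per treatment, 1 array per pool, so that 12 arrays form 4 groups. The number of animals in a pool is not listed, and p-values therefore measure the spread between pools. Heart and blood RNA were extracted with different kits and hybridised on different slides, so tissue, extraction and slide cannot be told apart.

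A voltage-gated sodium channel is formed by 1 large alpha subunit, which holds the pore and the voltage sensors, together with small beta subunits. The inward sodium current through the channel starts the action potential of neurons and of working heart muscle. Beta subunits cross the membrane a single time, carry an immunoglobulin fold outside the cell and alter the gating and the surface level of the channel. Amiodarone is an antiarrhythmic drug that blocks several cardiac ion channels, the sodium channel among them. The comparison in heart asks whether the transcripts of these subunits differ after repeated dosing, and the blood serves as a second tissue of the same study.

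On the heart arrays, 21233 to 25032 of 43379 spots passed the scanner software's test of being well above background, and the 75th percentile of processed signal was 111 to 175. Vehicle blood arrays had 14459 to 15548 such spots and a 75th percentile of 20.9 to 26.2. Amiodarone blood arrays were brighter, with 20625 to 21245 such spots and a 75th percentile of 56.8 to 87.5. On the log2 scale each array's 75th percentile was therefore subtracted (scaled log2, where 0 is that percentile), and in blood this choice decides the sign of some differences. All 10 cardiomyocyte markers were well above background on every heart array, and their summed signal, in multiples of the array's 75th percentile, was 8170 to 11200 in vehicle and 9210 to 9950 in amiodarone heart. The same sum was 3.16 to 7.43 in blood, where all 6 red cell markers were well above background on every vehicle array.

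In the left ventricle, the 3 alpha subunit genes were higher after amiodarone, by 1.69-fold to 2.19-fold, and the measured beta subunit genes did not pass the test. Of the 5 subunit genes that could be tested in heart, 3 rose, none fell and 2 did not pass. A gene passed when its p from limma's moderated test, adjusted over all features by the Benjamini-Hochberg method, was under 0.05. Over all 17467 heart features, 8.56% passed, 4.33% as higher and 4.23% as lower. The median log2 difference over all heart features was 0.02. On the scaled values the 2 groups did not overlap, with every amiodarone pool higher, for Scn1a, Scn3a, Scn7a and Scn3b, an outcome that 18.9% of all heart features shared. Every pool was lower for Scn4b, as for 13.7% of all features. An exact permutation test of 3 against 3 pools cannot go below p = 0.1, so each p below comes from limma.

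**Figure D1:**
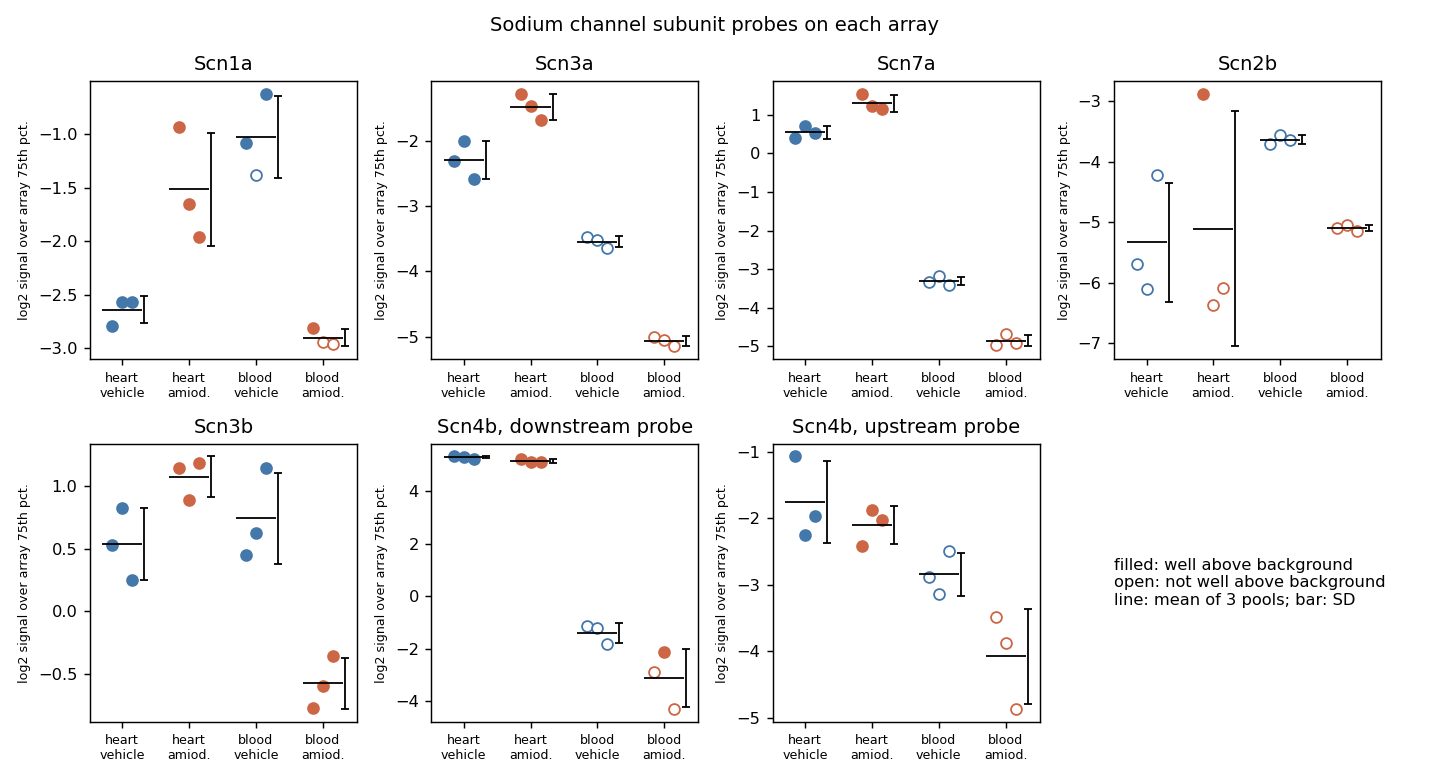
Scaled log2 signal (log2 signal minus the log2 of the array's 75th percentile) of each of the 7 subunit probes on the 12 arrays, by tissue and treatment. Points are pools, filled where the probe was well above background, lines are means of 3 pools and bars are SDs. In heart the amiodarone pools lie above all vehicle pools for Scn1a, Scn3a, Scn7a and Scn3b, and in blood most points other than those of Scn3b are open.

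Scn1a encodes an alpha subunit best known from inhibitory neurons of the brain and is also found in rodent heart. Its probe lies at chr3:48239066-48239125 on the minus strand of build rn4. Its processed signal was 16.4, 29.4 and 23.7 in the vehicle heart pools and 58.4, 52 and 30.1 in the amiodarone heart pools. On the scaled log2 scale the vehicle mean was -2.64 ± 0.13 (SD, n = 3) and the amiodarone mean was -1.51 ± 0.53 (SD, n = 3). Every amiodarone pool lay above every vehicle pool, and amiodarone pool 1 was the highest, at -0.93 against -1.65 and -1.96. Scn1a rose by 1.13 on the log2 scale (SE 0.26, adjusted p = 0.0403 by limma), or 2.19-fold. All 6 heart arrays measured the probe well above background, at signals well under their 75th percentile.

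Scn3a encodes an alpha subunit that is abundant in the embryonic nervous system and declines after birth in rodents. Its probe lies at chr3:47496272-47496331 on the minus strand. Its processed signal was 22.8, 43.9 and 23.5 in vehicle heart and 45.9, 59 and 36.7 in amiodarone heart. The scaled log2 means were -2.30 ± 0.29 and -1.47 ± 0.20 (SD, n = 3 each). The scaled groups did not overlap, whereas the unscaled signal of vehicle pool 2, a bright array, exceeded that of amiodarone pool 3. Scn3a rose by 0.82 on the log2 scale (SE 0.19, adjusted p = 0.0426 by limma), or 1.77-fold.

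Scn7a encodes an atypical member of the family, a sodium-level sensor that is known from glia and from the circumventricular organs of the brain and is also expressed in heart. Its probe lies at chr3:48633684-48633743 on the minus strand. Its processed signal was 148, 286 and 204 in vehicle heart and 324, 378 and 258 in amiodarone heart. The scaled log2 means were 0.55 ± 0.16 and 1.30 ± 0.22 (SD, n = 3 each). Again no scaled vehicle pool reached the lowest amiodarone pool, at 1.14, and unscaled vehicle pool 2 exceeded amiodarone pool 3. Scn7a rose by 0.75 on the log2 scale (SE 0.17, adjusted p = 0.0357 by limma), or 1.69-fold.

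These 3 calls lie close to the threshold. Each difference remained positive in all 6 fits that left out 1 pool, at 0.84 to 1.36 for Scn1a, 0.68 to 0.97 for Scn3a and 0.63 to 0.84 for Scn7a. The call for Scn3a was lost whichever pool was left out (adjusted p = 0.0522 to 0.146). That for Scn1a held only without amiodarone pool 1 or 3 (adjusted p = 0.0297 and 0.0258), and that for Scn7a only without amiodarone pool 3 (adjusted p = 0.0483). With no scaling between arrays the differences were 1.00, 0.69 and 0.62 for Scn1a, Scn3a and Scn7a and none passed. With normexp background correction, which compresses dim signals, Scn7a passed at 0.55, while Scn1a at 0.46 and Scn3a at 0.36 did not. With the authors' normalized values Scn3a passed at 0.89 and Scn7a at 0.74. Scn1a, at 1.57 (SE 0.42), did not pass there (adjusted p = 0.118 by limma). Within the slide that held pools 1 and 2 the differences were 1.39, 0.78 and 0.83, and within the slide that held pool 3 they were 0.61, 0.90 and 0.60.

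The 3 alpha subunit genes neighbour each other on rat chromosome 3, and their probes lie within 1.14 Mb in rn4, with those of Scn1a and Scn7a 0.395 Mb apart. No stretch longer than 8 bases is shared by probes of different subunit genes. Of the 6 genes, 4 matched the RefSeq promoter table of build GRCr8. The 250 bases before the start of Scn3a (chr3:70666199-70666448, minus strand) and Scn7a (chr3:71846285-71846534, minus strand) are shown because both transcripts rose in heart, and those of Scn4b (chr8:54343623-54343872, plus strand) because it did not pass. Capitals mark a match on either strand to TATAAA (the consensus of the TATA box), to CCAAT (the core bound by NF-Y), to GGGCGG (the core of the GC box) or to AGAACA (a hexamer of the glucocorticoid and androgen receptor element).
Scn3a: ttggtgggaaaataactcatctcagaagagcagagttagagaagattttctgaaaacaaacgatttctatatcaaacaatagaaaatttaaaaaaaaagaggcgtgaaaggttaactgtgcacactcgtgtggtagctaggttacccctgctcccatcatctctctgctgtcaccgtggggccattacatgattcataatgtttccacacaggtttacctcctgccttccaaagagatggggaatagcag
Scn7a: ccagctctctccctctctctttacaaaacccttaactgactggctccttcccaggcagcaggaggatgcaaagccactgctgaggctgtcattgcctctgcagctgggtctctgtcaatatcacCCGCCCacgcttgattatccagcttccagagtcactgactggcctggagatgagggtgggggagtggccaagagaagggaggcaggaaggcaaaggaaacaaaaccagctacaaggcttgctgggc
Scn4b: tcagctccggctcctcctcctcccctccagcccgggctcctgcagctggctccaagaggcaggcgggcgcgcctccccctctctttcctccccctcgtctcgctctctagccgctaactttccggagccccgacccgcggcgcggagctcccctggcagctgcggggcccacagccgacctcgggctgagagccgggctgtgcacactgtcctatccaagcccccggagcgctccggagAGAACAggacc

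The Scn7a window holds 1 GGGCGG, read on the reverse strand, and the Scn4b window holds 1 AGAACA. The Scn3a window holds none of these motifs. Among 33469 rat promoters of the same length, 30.5% held GGGCGG, 17.5% held AGAACA, 12.9% held TATAAA and 34% held CCAAT on either strand. The general E-box CANNTG, left in lower case, occurs in 65.5% of promoters, 1 time before Scn7a, 2 times before Scn4b and 3 times before Scn2b. The windows also differ in base composition. GC content was 41.6% before Scn3a, 56% before Scn7a, 38.8% before Scn2b and 71.6% before Scn4b, against a median of 51.2% over all promoters. The Scn4b window has 21 CpG dinucleotides, whereas those of Scn3a, Scn7a and Scn2b have 4, 2 and 1, and the median over all promoters is 5.

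Among the beta subunits, Scn3b did not pass in heart and neither did Scn4b. Scn3b encodes a subunit that binds the alpha subunit without a disulfide bond, and human variants in it have been linked to cardiac arrhythmia. Its probe lies at chr8:43253930-43253989 on the plus strand of rn4. Its processed signal was 163, 311 and 167 in vehicle heart and 247, 302 and 268 in amiodarone heart. The scaled log2 means were 0.54 ± 0.29 and 1.08 ± 0.16 (SD, n = 3 each). The scaled groups did not overlap, but their nearest pools, vehicle pool 2 at 0.83 and amiodarone pool 2 at 0.89, were close. The log2 difference was 0.54 (SE 0.19, 95% interval 0.11 to 0.98, adjusted p = 0.121 by limma). It lay between 0.35 and 0.69 over all alternatives and pools left out and passed in none of them.

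Scn4b encodes a beta subunit bound to the alpha subunit by a disulfide bond, known for its role in the resurgent sodium current of cerebellar neurons and for human variants linked to long QT syndrome. Its probe used in the tests (chr8:48106487-48106546, plus strand, the downstream one) had a processed signal of 4530, 6850 and 5300 in vehicle heart and 4140, 5570 and 4080 in amiodarone heart. The scaled log2 means were 5.28 ± 0.04 and 5.14 ± 0.07 (SD, n = 3 each). All amiodarone pools were lower than all vehicle pools on this scale, with a gap between 5.24 and 5.22. The log2 difference was -0.14 (SE 0.13, 95% interval -0.43 to 0.16, adjusted p = 0.534 by limma). It stayed between -0.27 and -0.04 under every alternative and pool left out. The other probe of Scn4b, 6.11 kb upstream at chr8:48100318-48100377, had a processed signal of 53.8, 36.7 and 36 in vehicle heart and 20.8, 44.7 and 28.9 in amiodarone heart. Its groups overlapped, and its log2 difference was -0.34 (SE 0.31, adjusted p = 0.55 by limma over all passing probes).

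Scn2b encodes the other subunit that is joined to the alpha subunit by a disulfide bond. Its probe (chr8:48077758-48077817, plus strand, 22.5 kb from the upstream Scn4b probe) was well above background on 1 of the 12 arrays, that of amiodarone heart pool 1, with a processed signal of 15.1. The other heart pools gave 1.72 to 7.53, and Scn2b was tested in neither tissue. The Scn2b probe and the upstream Scn4b probe are shown because both cover the same conserved part of the immunoglobulin fold. Capitals mark the stretch from GAC over GGC to TAC, the codons of an aspartate, a glycine and a tyrosine with 1 free codon between neighbours, a set that is typical of such folds. Searched on the printed strand alone, it is held by 8 of the 41012 probes (0.0195%).
Scn2b: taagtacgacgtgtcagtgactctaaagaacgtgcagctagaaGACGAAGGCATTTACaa
Scn4b: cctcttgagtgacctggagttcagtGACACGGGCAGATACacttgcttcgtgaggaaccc

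**Figure D2:**
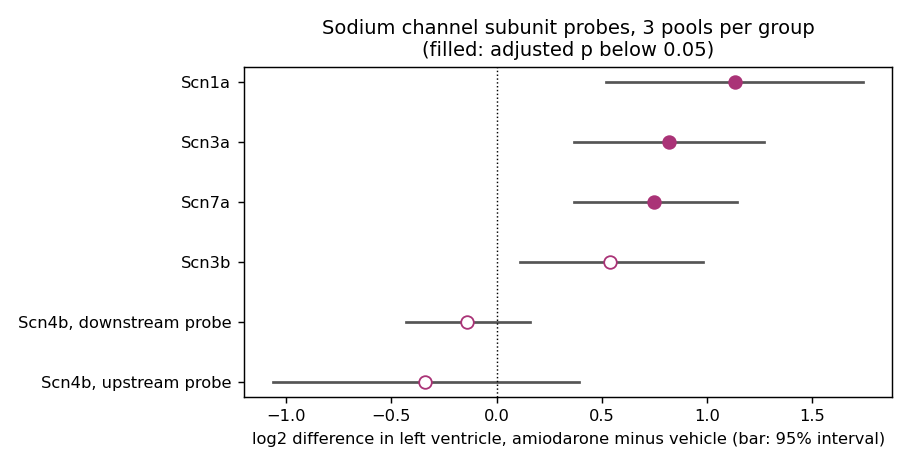
Log2 difference in left ventricle, amiodarone minus vehicle, for each subunit probe of these genes measured there, with its 95% interval from limma (3 pools per group). Filled points passed at adjusted p below 0.05. Scn1a, Scn3a and Scn7a have lower bounds of 0.52, 0.37 and 0.37, while the intervals of both Scn4b probes include 0.

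Outside these genes, the probes of the alpha subunits Scn2a1, Scn4a, Scn8a, Scn9a, Scn10a and Scn11a were well above background on none of the 6 heart arrays.

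Of 30 partners and regulators of sodium channels, 22 were tested in heart, none rose and 1 fell, with a median log2 difference of -0.04 against 0.02 over all features. None of 7 tested transcription factors known to act on cardiac sodium channel genes passed in limma, and 0 had an unadjusted p below 0.05. The smallest p among them belonged to Nfkb1 at 0.26 (SE 0.13, adjusted p = 0.248 by limma) and Hey2 at -0.50 (SE 0.25, adjusted p = 0.267 by limma). Of 6 tested genes for other sodium entry routes, Nalcn, the sodium leak channel, fell by 0.70 on the log2 scale (SE 0.16, adjusted p = 0.0392 by limma). It passed under 3 of 5 other scalings or backgrounds and was lower in all 5.

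In a bulk tissue, more cells of a type and more RNA per cell cannot be told apart. The markers of other cell types are therefore given beside the alpha subunits. Of 12 neuron markers, 2 were tested in heart and none passed, at -0.62 for Dbh and -0.20 for Prph. Their list sum was 3.67 to 4.47 times the array's 75th percentile in vehicle and 3.23 to 3.95 in amiodarone heart. Snap25, Stmn2, Uchl1, Syp, Nefl, Nefm and Elavl4, which define neurons, were well above background on no heart array. Of 8 Schwann cell markers, 4 were tested. Of these, 1 rose and 1 fell. Egfl8 fell by 0.72 (SE 0.15, adjusted p = 0.0316 by limma) and the list sum was 3.98 to 5.21 in vehicle and 4.26 to 4.59 in amiodarone heart.

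Other cell type markers moved with the treatment in heart. Of 7 tested fibroblast markers 4 fell, at -2.13 for Col1a1, -1.45 for Col1a2, -2.31 for Col3a1 and -1.14 for Lum on the log2 scale. Pdgfra at 0.46, Dcn at 0.39 and Tcf21 at -0.08 did not pass. The fibroblast list sum was 237 to 319 in vehicle and 130 to 176 in amiodarone heart. Red cell markers summed to 66.9 to 96.7 in vehicle and 17.1 to 20.5 in amiodarone heart, with 4 of 6 lower. Neutrophil markers summed to 0.462 to 0.52 and 1.05 to 2.13, with both tested members higher, and monocyte and macrophage markers to 15.1 to 21.5 and 24.4 to 26, with none of 4 past the threshold. Platelet markers were higher in 2 of 3 tested, and 1 of 7 endothelial and 1 of 3 smooth muscle markers were lower. Cardiomyocyte markers gave no call among 10 tested. Atrial and conduction markers varied between pools, with sums of 31.3 to 191 in vehicle and 20.3 to 732 in amiodarone heart and no call among 4 tested. Their part in the subunit differences was not tested.

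For each subunit tested in heart, the 3 genes whose scaled values were most like it over the 6 heart arrays were found by Pearson's r among 9668 genes, as a description. The 6 arrays share 2 treatment groups, so a gene that differs between them resembles a subunit that does. For Scn1a they include Fam13b (r = 0.998) and Sgms1, a sphingomyelin synthase (0.996). Scn3a was most like Cyp1b1, a cytochrome P450 (0.995), Cdh26, a cadherin (0.994), and Clec2d2l2 (0.994). Scn7a was most like Sdc4, a syndecan (0.998), Kif7, a kinesin family member (0.995), and Tsc22d3, a leucine zipper protein induced by glucocorticoids (0.994). Scn3b was most like Pon3, a paraoxonase, at 0.994, ahead of Metrnl at 0.977 and Ms4a6a at 0.974. Scn4b was most like Tmtc4 at 0.988, Epb41l1 at 0.986 and Hexim1 at 0.983.

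In whole blood, Scn3b was the single subunit that could be tested, and its difference changed sign with no scaling. Its processed signal was 35.9, 32.3 and 55.6 in vehicle blood and 51.3, 37.4 and 60 in amiodarone blood, so the groups overlapped. On the scaled log2 scale the means were 0.74 ± 0.36 and -0.58 ± 0.21 (SD, n = 3 each), with every amiodarone pool below every vehicle pool, an outcome that 28.9% of blood features shared. Relative to the 75th percentile Scn3b fell by 1.32 on the log2 scale (SE 0.24, adjusted p = 0.00302 by limma), but with no scaling its difference was 0.28 (adjusted p = 0.49) and with normexp background correction -0.38 (adjusted p = 0.129). Of all 15667 blood features 67.4% passed and 27.1% passed as lower, and with 1 subunit tested nothing can be read from its call against those shares. The median log2 difference over all blood features was 0.44 as scaled and 2.04 with no scaling. Scn3b lay below that median in both.

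**Figure D3:**
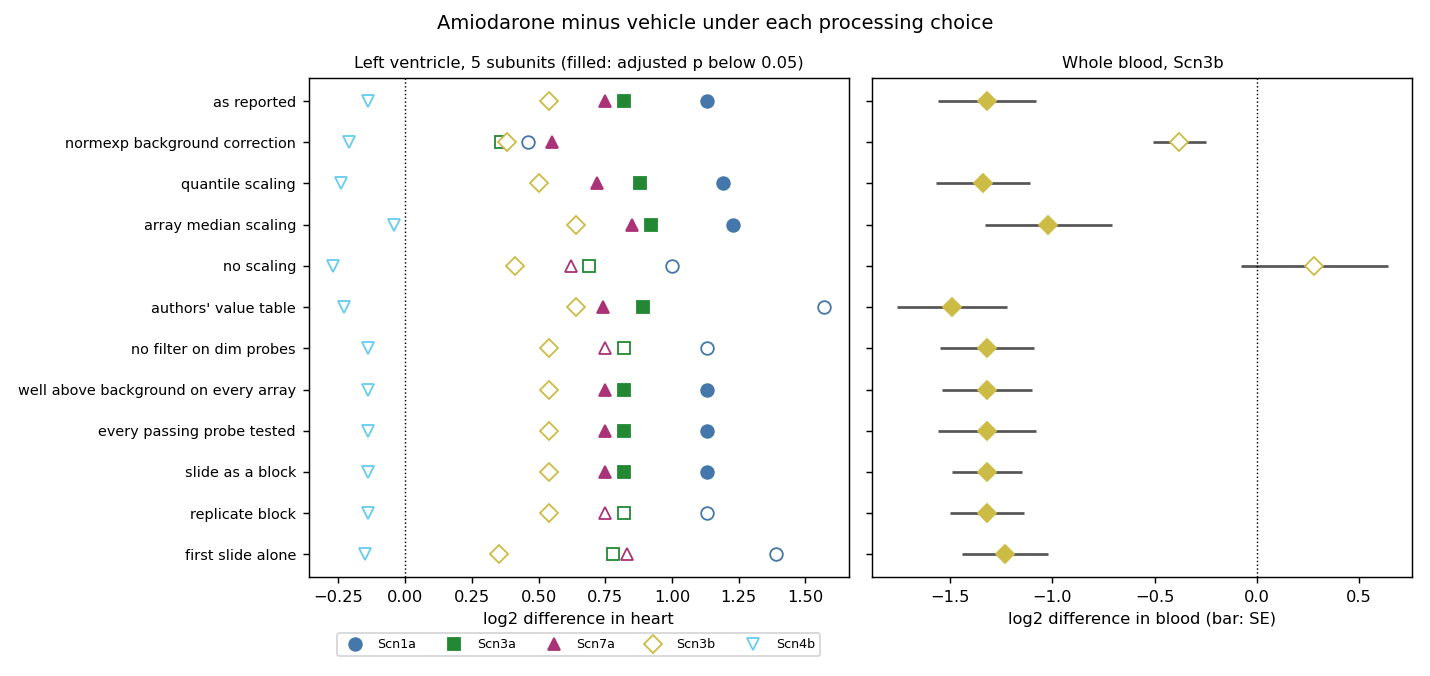
Log2 difference, amiodarone minus vehicle, under each processing choice, for the 5 subunits tested in left ventricle and for Scn3b in whole blood (bars are SEs from limma). Filled symbols passed at adjusted p below 0.05. In heart each gene keeps its sign, while Scn3b in blood runs from -1.49 in the authors' value table to 0.28 with no scaling.

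Scn1a was near the detection limit in blood. Its processed signal was 12.4, 8.04 and 16.3 in vehicle blood and 12.5, 7.4 and 9.88 in amiodarone blood, and it was well above background on 2 of 3 and 1 of 3 arrays. The unscaled groups overlapped, and the gene was not tested there. Scn3a gave 1.72 to 2.73 and Scn7a 2.2 to 2.79 over the 6 blood arrays, never well above background. The downstream Scn4b probe gave 3.94 to 13 and passed the background check on 1 of the 6, amiodarone blood pool 2, while its upstream probe and that of Scn2b passed on none.

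Among the other sodium channel genes, Scn10a, an alpha subunit of sensory neurons, was measured on all 6 blood arrays, at 47.6, 51.3 and 31.7 in vehicle and 36.8, 45.5 and 25.6 in amiodarone blood. These unscaled groups overlap. Scn10a fell by 1.89 relative to the 75th percentile, with differences of -1.89 to -0.28 over the 5 other scalings and backgrounds and a call in 3 of them. Of 15 partners and regulators tested in blood, 9 rose and 5 fell, as scaled, where 40.3% of all blood features passed as higher and 27.1% as lower. Sgk1, a kinase that acts on sodium channels, rose by 1.58 and Calm2, a calmodulin gene, by 1.39, both positive under all 5. Pkp2, a desmosomal protein, fell by 1.63 and stayed negative (-0.03 with no scaling), while Cav3, a caveolin of muscle, fell by 1.41 as scaled and was at 0.19 with no scaling.

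All 3 tested transcription factors passed as lower in blood, Snai1 at -1.44, Nfkb1 at -1.12 and Foxo1 at -0.56, and all 3 turned positive with no scaling, at 0.16, 0.48 and 1.04. Asic1 at -1.33 and Scnn1b at -0.67, which carry sodium by other routes, did the same, at 0.27 and 0.93.

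Between the tissues, Scn4b was higher in vehicle heart than in vehicle blood, by 6.67 on the log2 scale (adjusted p = 2.8e-08 by limma). Scn7a was higher by 3.85 (adjusted p = 1.46e-09 by limma). No vehicle blood array measured either gene well above background, so these tests set a heart signal against background. The folds were at least 91.7 for Scn4b and at least 3.73 for Scn7a. These are lower bounds as scaled, the mean of vehicle heart against the higher of the dimmest signal called well above background and the probe's own value on each blood array. They depend on the background correction, since with normexp the log2 difference was 4.99 for Scn4b and 0.79 for Scn7a, both less than these folds. Scn3a was measured on all 3 vehicle heart arrays and on no vehicle blood array, but its heart signal was too low for a bound above 1. Scn1a was lower in vehicle heart than in vehicle blood relative to the 75th percentile, at -1.62 (SE 0.26, adjusted p = 0.000116 by limma), although the log2 difference was 0.94, higher in heart, with no scaling. Scn3b did not pass, at -0.21 (adjusted p = 0.4 by limma). Over all 20055 features 81.1% passed, 42.2% as higher and 38.9% as lower in heart. The subunits that passed, 4 of 5, are not read against these shares, since Scn1a, Scn3a, Scn7a and Scn4b entered the test through heart alone.

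The difference between the tissues in response to amiodarone was tested as the heart difference minus the blood difference. Over all 20055 features 46.5% passed, 24.8% as higher in heart. No count over the subunits is read against these shares, since Scn1a, Scn3a, Scn7a and Scn4b entered the test through heart alone. The blood side of the contrast is a value at background for Scn3a, Scn7a and Scn4b and near the detection limit for Scn1a. Scn3b is the single subunit that all 12 arrays measured. Its value was 1.87 on the log2 scale (SE 0.32, 95% interval 1.17 to 2.56, adjusted p = 0.00125 by limma), and 0.13 with no scaling (adjusted p = 0.832).

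Over the 4 groups, the scaled level of Scn3b was highest in amiodarone heart at 1.08, then 0.74 in vehicle blood, 0.54 in vehicle heart and -0.58 in amiodarone blood. The pools of amiodarone heart overlap with those of vehicle blood, and those of vehicle blood with vehicle heart, whereas amiodarone blood overlaps with none. This order depends on the scaling, since vehicle heart exceeded vehicle blood by 2.35 with no scaling. The level of Scn1a was -1.03 in vehicle blood, -1.51 in amiodarone heart, -2.64 in vehicle heart and -2.90 in amiodarone blood, where vehicle blood and amiodarone heart overlap and the nearest pools of vehicle heart and amiodarone blood were at -2.79 and -2.81. Scn3a, Scn7a and Scn4b were higher in both heart groups than in both blood groups as scaled, although Scn3a in vehicle was at -0.57, heart minus blood, with normexp. The order of their blood groups is not defined, since they were at background there.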

How the data were processed

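RNA of 12 pools was measured on single-colour arrays. Per the file headers, the deposited scanner files hold a processed intensity for each spot, background-subtracted and detrended but not normalized between arrays, the unprocessed mean and background intensity, and other columns that flag a spot. The authors' value table holds normalized intensity, heart and blood separately per the series design text, and served as an alternative only.

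Outlier spots were left out, spots of a probe averaged, and log2 values scaled by each array's 75th percentile. Testing in a tissue required that all 3 arrays of either group measured the probe well above background, and each gene was represented by its brightest such probe. Tests were limma 3.58.1 in R 4.3.3 (reading with the data.table package, version 1.17.8), two-sided, each tissue fitted alone and the contrasts between tissues in a joint fit of 12 arrays. The threshold was 0.05 for p adjusted over all features (Benjamini-Hochberg). The fit was tested on simulated data. For heart, over 17461 genes, it recovered 44% of 2-fold changes with 5.07% false calls. For blood, over 15647 genes, it recovered 15% with 3.66% false calls, without the brightness difference between the blood groups. The simulation changed a far smaller share of genes than passed in the real data, with independent noise. Its rates therefore need not hold for the real fits.

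Members and lists were chosen with earlier results of these data known. Named are all members, up to 4 genes per list that passed with the lowest p (otherwise up to 2), the 3 genes most like each member, and cell type markers. Some genes that this rule takes are not reported here. Probe positions are those of rn4 in the files. Exons and untranslated regions are not given in the sources used here. Alternatives covered background correction (normexp, offset 50), scaling, filter, probe choice, the authors' normalized values, slide and replicate blocks, and pools left out. No pair of arrays was identical. The number of arrays limits the precision.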

Additional observations from a re-analysis of the deposited data

Results flagged for a closer look

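The amiodarone difference in heart was set against that in blood by limma's test of the difference itself in 1 fit of the 12 arrays, in which 46.5% of 20055 features passed and 24.8% passed as higher. The heart difference minus the blood difference was 1.87 for Scn3b on the log2 scale (SE 0.32, adjusted p = 0.00125), the single subunit measured on all 12 arrays, and 0.13 with no scaling (adjusted p = 0.832). It was 3.01 for Scn1a (adjusted p = 0.000296), whose blood arrays were well above background in 3 of 6 cases. It was 2.35 for Scn3a (adjusted p = 0.000181), 2.31 for Scn7a (adjusted p = 0.000157) and 1.57 for Scn4b (adjusted p = 0.0479). For these last 3 the blood side was at background, at a processed signal of 1.72 to 2.73 for Scn3a, 2.2 to 2.79 for Scn7a and 3.94 to 13 for Scn4b, so the contrast does not measure a change of their RNA in blood. With no scaling it was 1.28 for Scn1a (adjusted p = 0.0387 by limma), 0.61 for Scn3a, 0.57 for Scn7a and -0.16 for Scn4b. For Scn1a it was 0.76 with normexp and did not pass (adjusted p = 0.091 by limma).

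Single arrays outside the tests had a probe well above background that no vehicle pool of the tissue did. The Scn2b probe was well above background at a processed signal of 15.1 in amiodarone heart pool 1 and in no vehicle heart pool, where it gave 2.19 to 7.53. The downstream Scn4b probe was well above background at 13 in amiodarone blood pool 2, against 7.05 to 11.9 in vehicle blood. That array was brighter as a whole, and as scaled it was at -2.13, below the vehicle blood pools at -1.83 to -1.14.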

How the results depend on the processing

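In heart, each tested subunit kept its sign in all 17 fits under other settings or without 1 pool. The number of subunits past the threshold, 3 as reported, was 1 with normexp and 0 with no scaling, with no filter on dim probes and on the first slide alone, and 0 to 2 without 1 pool. It was 2 in the authors' value table, where Scn1a did not pass. All heart features past the threshold, 1496 as reported, were 736 with no scaling, 292 with no filter and 269 on the first slide alone, and 525 to 1384 without 1 pool. No filter tests more features, and the first slide holds 2 pools per group; other causes were not tested. Whether the replicate numbers pair the pools is not listed. Same-numbered pools had correlations of deviations of -0.16, -0.24 and 0.32 in heart and 0.08, 0.17 and 0.31 in blood. Differently numbered pools had -0.19 to 0.35 in heart and -0.3 to 0.17 in blood. So few pools cannot decide whether they are paired. With the replicate block 0 subunits and 697 heart features passed (adjusted p = 0.0907 for Scn1a, 0.0657 for Scn3a, 0.0983 for Scn7a).

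In blood the count of 1 subunit became 0 with normexp, 0 with no scaling and 6 with no filter, which admits values at background, and features, 10558 as reported, became 732 with normexp and 24675 with no filter, and 8341 to 10626 without 1 pool. The subunit count was 1 in each fit without 1 pool. Scn3b turned to 0.28 with no scaling. Subunits past the threshold for a difference between tissues, 5 as scaled with 3 of them at background in blood, were 1 with normexp, 1 with no scaling and 1 when every array had to be well above background, and 4 to 5 without 1 pool; Scn4b turned to -0.06 with normexp and -0.16 with no scaling. Between vehicle tissues, 4 subunits, 3 of them at background in blood, became 0 when every array had to measure them. Scn1a turned to 0.94 with no scaling, Scn3a to -0.57 with normexp, and Scn3b to 0.25 with normexp, 0.35 with median scaling, 2.35 with no scaling and 1.19 in the authors' table. Signal over background limits Scn1a and Scn3a in heart and all subunits but Scn3b in blood.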
